A study of Homo sapiens with 2 samples.

Results

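Crosslink sites of the splicing factor SRSF1 were examined in 10 genes that encode heterogeneous nuclear ribonucleoproteins (hnRNPs): HNRNPA1, HNRNPA2B1, HNRNPC, HNRNPD, HNRNPH1, HNRNPK, HNRNPU, HNRNPM, HNRNPF and HNRNPL. A site was taken as a member when its midpoint lay in a fixed hg19 window around the gene, on the gene's strand. The windows held 26 of the 6754 listed sites (0.385%), and 8 of the 10 genes had at least 1. The share of other genes with a listed site was not computed, so the 8 of 10 has no background value beside it. HNRNPU and HNRNPA2B1 carried 8 sites each, which is 61.5% of the sites in 11.6% of the summed window length of 219 kb. HNRNPA1 and HNRNPK had no listed site.

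The study holds 2 samples, replicates 1 and 2 of 1 group, both made by SRSF1 HITS-CLIP from H1299 cells. H1299 is an established human lung carcinoma line, and the labels give it no treatment, genotype change or control library. HITS-CLIP uses ultraviolet light to link a protein to RNA in direct contact with it in the living cell, then isolates the protein and sequences the RNA fragments (tags) that come with it. Both replicates stand in 1 combined list, so the values below have no replicate spread, no test between samples was possible, and the depth of each library is unknown here.

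The hnRNPs coat newly made transcripts in the nucleus and take part in splice site choice, RNA export and RNA stability. SRSF1 belongs to the SR proteins, which bind exons of pre-mRNA and promote their use. The SR proteins and hnRNP A1 are a textbook example of splicing factors with opposed effects on splice site choice. Transcripts of splicing factor genes are themselves alternatively spliced, and many of these genes are known to control their own level in this way.

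The list holds sites of 2 kinds. At a truncation site, reverse transcription stopped at or beside the crosslinked base. The list gives for each one the truncated tags, the expected number for each position of the cluster of overlapping tags it lies in, and the authors' P for the excess. At a mutation site, the reverse transcriptase misread the base, and the list gives the covering tags and how many of them were mutated. No listed truncation site had under 4 truncated tags, and no listed mutation site had under 2 mutated tags. Each hnRNP site is an interval of 21 nt, given here by its 1-based hg19 start and end. Distances along a gene run from the 5′ edge of its window, which is a rounded border and not an annotated transcription start. No hg19 genome or annotation was used, so whether a site is exonic, intronic or in a UTR is not analysed here, and no sequence under a site is shown.

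**Figure D1:**
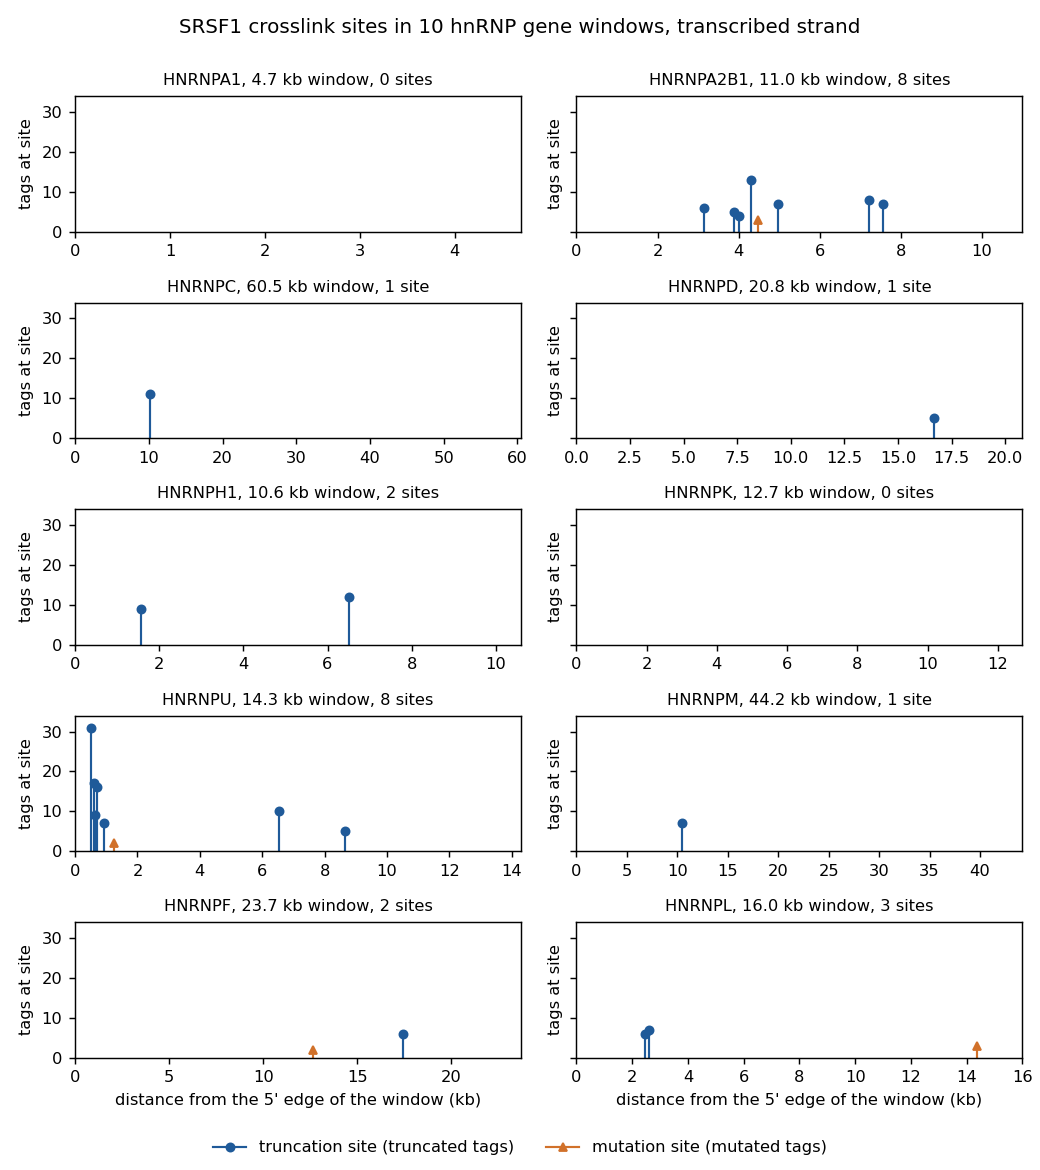
Listed SRSF1 sites in the 10 hnRNP gene windows, by distance from the 5′ edge of the window in kb (x axis, a scale for each gene) and tags at the site (y axis, shared); circles are truncation sites by truncated tags and triangles are mutation sites by mutated tags. HNRNPU and HNRNPA2B1 hold 8 sites each, and the panels of HNRNPA1 and HNRNPK are empty.

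HNRNPU encodes the scaffold attachment factor hnRNP U, a large nuclear protein that binds RNA and chromatin. Its window (chromosome 1, minus strand, 245013600 to 245027900) held 7 truncation sites and 1 mutation site, or 5.59 sites per 10 kb. The truncation sites had, from 5′ to 3′, 31, 17, 9, 16, 7, 10 and 5 truncated tags, 95 in all. These were 45.7% of the 208 truncated tags at hnRNP sites. The highest site lay at 245027374 to 245027394, 516 nt from the 5′ edge, with 31 tags against 0.84 expected, a ratio of 36.9. Only 11 of the 4731 truncation sites in the list (0.233%) had 31 tags or more, this one included, and its P stood at the lowest listed value, 1e-100, as did that of 140 sites in all.

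The 4 most 5′ sites of HNRNPU belonged to 1 tag cluster. From 5′ to 3′ they lay 91, 45 and 53 nt apart, over 189 nt from the first midpoint to the last. The second, at 245027283 to 245027303, had 17 tags (listed P of 3.78e-13). The next, at 245027238 to 245027258, had 9 tags and a ratio of 10.7, the lowest of the 22 hnRNP truncation sites (listed P of 0.000867). The last, at 245027185 to 245027205, had 16 tags (listed P of 8.28e-12). Its 4 listed sites had 73 truncated tags, 76.8% of the 95 at listed HNRNPU sites. Truncated tags at unlisted positions are not in the list, so neither number is the total of the cluster or of the gene. Among the 4370 tag clusters of the list with a truncation site, 21 held 4 or more.

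Farther 3′ the HNRNPU sites thinned out. A truncation site with 7 tags followed 221 nt after the cluster (245026964 to 245026984). The mutation site came 320 nt after that one (245026644 to 245026664), with 2 of 4 covering tags mutated (50%, exact Clopper-Pearson 95% interval 6.76 to 93.2%). These 6 sites fell within the first 1500 nt, 10.5% of the window. Then 5289 nt held no listed site, up to a truncation site with 10 tags (245021355 to 245021375, ratio 38.5, listed P of 2.28e-10). The last one, with 5 tags, lay 2110 nt beyond it (245019245 to 245019265), and the remaining 5.66 kb to the 3′ edge was empty.

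HNRNPA2B1 encodes hnRNP A2 and hnRNP B1, isoforms of an abundant protein with a pair of RNA recognition motifs that is closely related to hnRNP A1. Its window (chromosome 7, minus strand, 26229500 to 26240500) had the same numbers as HNRNPU, 7 truncation sites and 1 mutation site. Per 10 kb of window it had the highest density of the 10 genes, 7.27 sites. This rank depends on the windows, since the annotated span in GENCODE is longer for HNRNPA2B1 (28.5 kb) than for HNRNPU (23.9 kb). The truncated tags were, from 5′ to 3′, 6, 5, 4, 13, 7, 8 and 7, with a median of 7 and a sum of 50, which is 24.0% of the 208 tags at hnRNP sites. The lowest, with 4 tags, stood at the list's minimum. The sites thus had 4 to 8 tags apart from 1. That site lay at 26236191 to 26236211, 4299 nt from the 5′ edge, with 13 tags against 0.57 expected (listed P of 6.96e-11). Of the list's truncation sites 10.3% reach this height, and 83.2% reach its ratio of 22.8.

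Each of the 7 truncation sites of HNRNPA2B1 stood in a tag cluster of its own, unlike the 4 HNRNPU sites that share 1. Together with the mutation site, 5 of these 7 HNRNPA2B1 sites formed a locus of 1841 nt with a mean gap of 368 nt. A locus is a run of same-strand neighbours no more than 1000 nt apart. The 6-site locus of HNRNPU was narrower, 730 nt, with a mean gap of 146 nt. From first to last site, however, the 8 HNRNPA2B1 sites spanned 4438 nt and the 8 HNRNPU sites 8129 nt. The mutation site of HNRNPA2B1 (26236024 to 26236044) lay 167 nt 3′ of the 13-tag site. It had 3 of 11 covering tags mutated (27.3%, exact 95% interval 6.02 to 61.0%), the deepest coverage of the 4 hnRNP mutation sites. After a gap of 2236 nt came the last pair, with 8 tags (26233278 to 26233298) and 7 tags (26232917 to 26232937), 361 nt apart. The first 3135 nt and the last 3.43 kb of the window were empty.

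**Figure D2:**
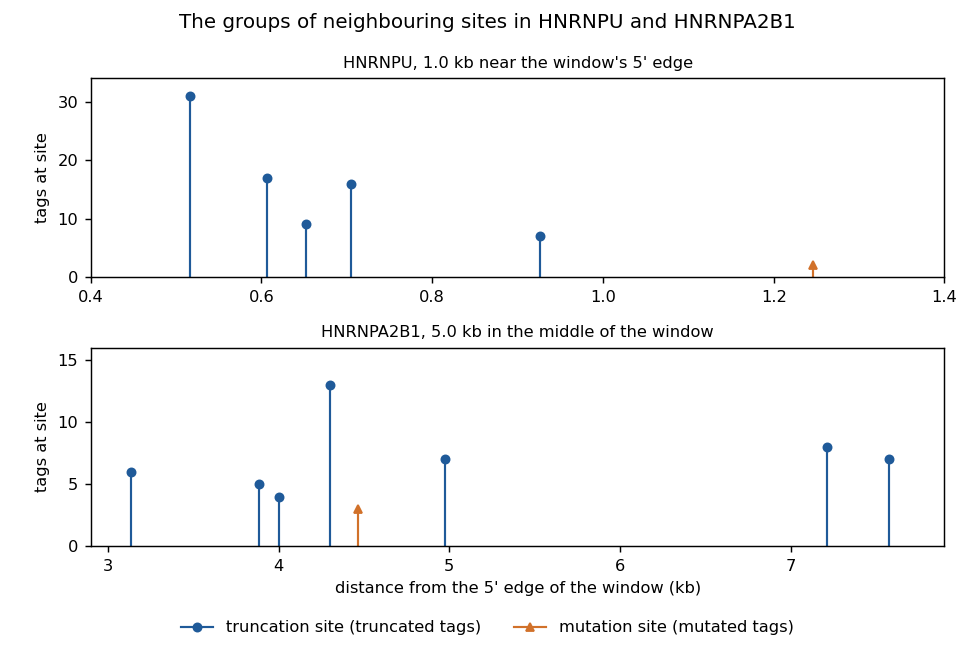
The neighbouring sites of HNRNPU (top, 1.0 kb) and HNRNPA2B1 (bottom, 5.0 kb) by distance from the 5′ edge of the window in kb (x axis) and tags at the site (y axis); circles are truncation sites, triangles mutation sites, and the x and y scales differ between the panels. The HNRNPU cluster has 31, 17, 9 and 16 tags within 189 nt, and the HNRNPA2B1 sites have 4 to 13 truncated tags over 4438 nt. The top panel leaves out the HNRNPU sites with 10 and 5 truncated tags farther 3′, with which that gene's sites span 8129 nt.

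HNRNPA1, the close relative of HNRNPA2B1 and the hnRNP best known for opposing SRSF1, had no listed site of either kind in its window (chromosome 12, plus strand, 54674400 to 54679100). This is the shortest window, 4.70 kb. The nearest listed sites on that strand lay 269 kb from its 5′ edge and 1832 kb from its 3′ edge. GENCODE names 75 pseudogenes after HNRNPA1, more than after any of the other 9 genes, for which the number runs from 0 (HNRNPA2B1) to 9 (HNRNPC). The treatment of tags that match several places is not given in the sources used here, so the counts of HNRNPA1 are uncertain, and the part of this in the empty window was not tested.

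HNRNPC encodes the C proteins, which bind runs of uridine in nascent RNA. It had 1 truncation site in the longest window, 60.5 kb (chromosome 14, minus strand, 21677200 to 21737700), or 0.165 sites per 10 kb, the lowest density among the genes with a site. The site was high by its count, with 11 truncated tags against 0.61 expected (21727478 to 21727498, listed P of 3.84e-08). Its ratio of 18.0 was low, since 91.9% of the list's truncation sites reach it. HNRNPM, which encodes an hnRNP with RNA recognition motifs, also had 1 site in a long window (chromosome 19, plus strand, 8509800 to 8554000). That site had 7 truncated tags against 0.30 expected (8520298 to 8520318, listed P of 1.27e-05).

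HNRNPD encodes AUF1, which binds AU-rich elements and acts on mRNA stability. Its 1 truncation site (chromosome 4, minus strand, 83278519 to 83278539) had 5 tags against 0.14 expected (listed P of 8.64e-05). It lay 80.1% of the way along the window of 83274400 to 83295200. HNRNPK encodes a KH-domain protein that binds C-rich RNA, and like HNRNPA1 it had no listed site in its window (chromosome 9, minus strand, 86582900 to 86595600). With 12.7 kb this window is longer than that of HNRNPA2B1, which held 8 sites. The annotated span in GENCODE is shorter for HNRNPK, however, with 12.5 kb against 28.5 kb. The nearest listed sites on the strand lay 919 kb to the 5′ side and 296 kb to the 3′ side.

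HNRNPH1 and HNRNPF encode related proteins that bind runs of guanine. HNRNPH1 (chromosome 5, minus strand, 179041100 to 179051700) had truncation sites with 9 tags (179050120 to 179050140, listed P of 6.41e-08) and 12 tags (179045182 to 179045202, listed P of 3.15e-12), 4938 nt apart. HNRNPF (chromosome 10, minus strand, 43881000 to 43904700) had 1 site of each kind, 4796 nt apart. Its truncation site had 6 tags against 0.37 expected (43887242 to 43887262, ratio 16.2, listed P of 0.000722). Its mutation site, on the 5′ side, had 2 of 7 covering tags mutated (43892038 to 43892058, 28.6%, exact 95% interval 3.67 to 71.0%).

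HNRNPL encodes a protein that binds CA repeats and CA-rich RNA. Its window (chromosome 19, minus strand, 39327000 to 39343000) held a pair of truncation sites 137 nt apart, 2466 and 2603 nt from the 5′ edge. The more 5′ of them had 6 tags against 0.24 expected (39340524 to 39340544, listed P of 0.000119). The other had 7 tags against 0.13 expected (39340387 to 39340407, listed P of 9.3e-08). Its ratio of 53.8 was the highest of the 22 hnRNP truncation sites, and 10.5% of the list reaches it. The mutation site stood 11763 nt farther 3′, at 89.8% of the window, with 3 of 4 covering tags mutated (39328624 to 39328644, 75%, exact 95% interval 19.4 to 99.4%). Interval and share rest on very few tags at this site, as at the other mutation sites.

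No listed site lay antisense in the 10 windows or just outside them. The opposite strand held 0 listed sites in the 10 windows and the 10 kb on either side of them. The same strand held 0 in those flanks. Beyond the flanks the opposite strand was not examined. The listed site closest to any window on its strand lay 41.7 kb away, 5′ of HNRNPM. In GENCODE the annotated gene spans exceed the windows by at most 17.5 kb (HNRNPA2B1, 28.5 kb against 11 kb). The borders of the windows thus do not decide which sites were counted, but they do set the densities per 10 kb. GENCODE places COX20 on the opposite strand of HNRNPU and CBX3 and NFE2L3 on that of HNRNPA2B1. It also places AC124016.1 opposite HNRNPD, RF00017 opposite HNRNPH1, AL354733.3 opposite HNRNPK and AC136469.2 opposite HNRNPM. On the same strand it places MIR7-1 in HNRNPK, and AC008982.1 and AC008982.2 overlap HNRNPL, whose sites cannot be told apart from theirs here. The same holds for AC078778.2 and HNRNPA1.

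Truncation sites made up 22 of the 26 hnRNP sites (84.6%, exact 95% interval 65.1 to 95.6%), against 70.0% in the remaining 6728 sites of the list, a value inside that interval. The intervals of shares given here cover counting error only and treat sites as independent, which sites of 1 gene or tag cluster are not. The 4 mutation sites had 11, 7, 4 and 4 covering tags (median 5.5, against 5 over the list). One of the 4 reached the list's upper quartile of 8 covering tags, as did 28.4% of the list's 2023 mutation sites.

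The hnRNP truncation sites were about as high as the list's. Their median was 7 truncated tags (quartiles 6 and 10.75, range 4 to 31), against 6 over the list (quartiles 5 and 9). At or above the list's upper quartile of 9 tags stood 9 of 22 (40.9%, exact 95% interval 20.7 to 63.6%), against 27.6% of the list. Of these 9, HNRNPU gave 5, HNRNPH1 gave 2, and HNRNPA2B1 and HNRNPC gave 1 each. The share moved with the genes included. It was 26.7% of 15 sites without HNRNPU, 53.3% of 15 without HNRNPA2B1 and 37.5% of 8 without both. A P under 1e-05 was listed for 11 of 22 (50%), near the 48.5% of the list.

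The expected number of tags was higher at hnRNP sites, with a median of 0.30 per position against 0.19, and the ratio of observed to expected was lower, with a median of 27.7 against 35.3. The HNRNPU cluster, at 0.84 expected, was among the densest, since 4.06% of the list's truncation sites had an expected number that high. The listed minimum of 4 truncated tags bounds the ratio from below most strongly where the expected number is low, so ratios at different expected numbers are not on equal terms.

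**Figure D3:**
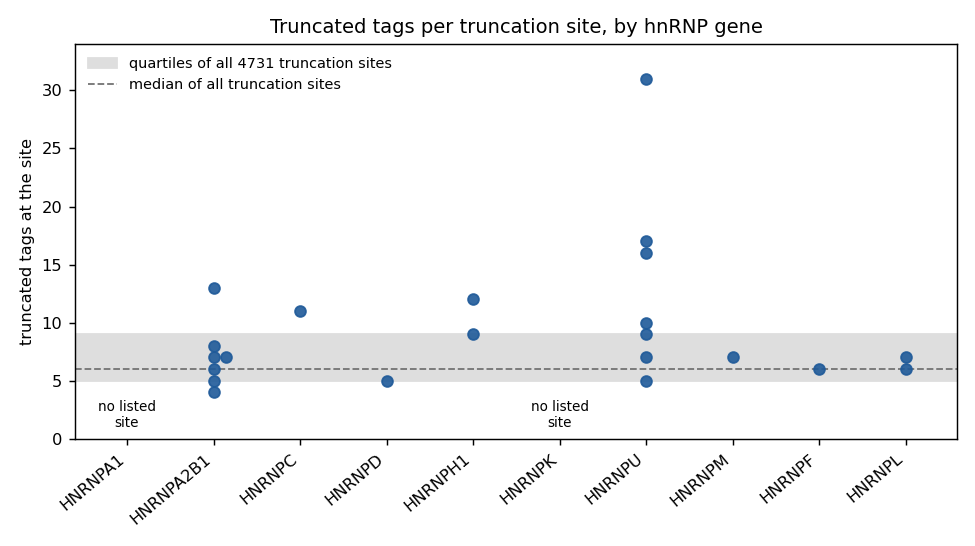
Truncated tags at each hnRNP truncation site (y axis) by gene (x axis); each point is 1 site, the grey band runs between the quartiles of all 4731 listed truncation sites (5 and 9 tags), and the dashed line is their median of 6. HNRNPU reaches 31 tags, while every site of HNRNPD, HNRNPM, HNRNPF and HNRNPL lies inside the band.

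**Figure D4:**
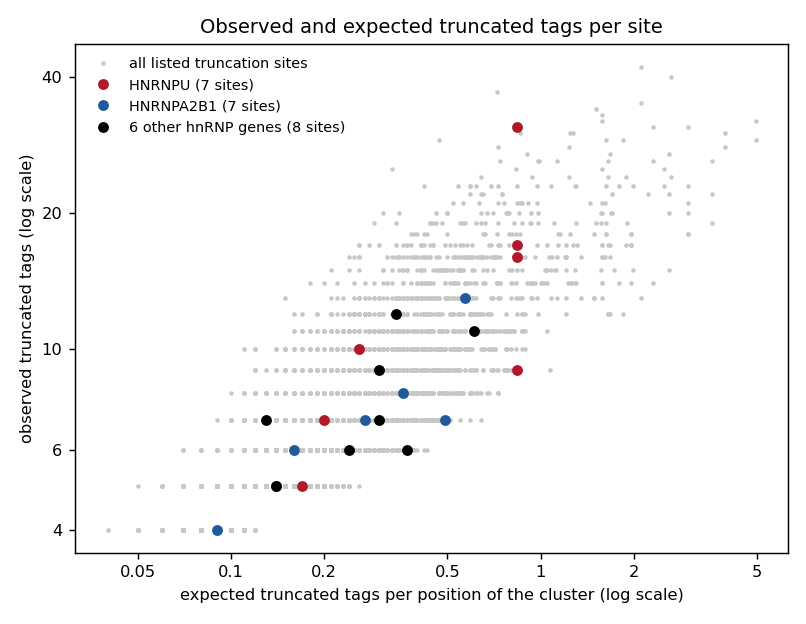
Observed truncated tags (y axis, log scale) against the number expected per position of the tag cluster (x axis, log scale) for all listed truncation sites (grey) and those of HNRNPU (red), HNRNPA2B1 (blue) and the 6 other hnRNP genes with a site (black). The 4 HNRNPU sites of the shared cluster line up at 0.84 expected tags, from 9 to 31 observed.

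In their grouping the hnRNP genes were uneven. The 26 sites formed 14 loci, of which 10 held 1 site (71.4%, against 85.0% of the 5199 loci of the list) and 2 held 5 or more (14.3%, against 1.38%). Counted by site, 12 of 26 lay in loci of 5 or more, against 10.3% of the list, and all 12 came from the 6-site loci of HNRNPU and HNRNPA2B1. Alone in their locus were 10 of 26 (38.5%, exact 95% interval 20.2 to 59.4%), against 65.4% of the list. Without HNRNPU and HNRNPA2B1, which held both 6-site loci, 8 of the remaining 10 sites (80%) were alone. This removal was chosen after seeing the data and takes out the large loci, and no interval was computed for its share. The median hnRNP site had 6 listed sites within 5 kb on its strand, itself included, against 1 over the list, but without either HNRNPU or HNRNPA2B1 the median was 2.

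Close pairs were few. The smallest distance between hnRNP sites was 45 nt, between a pair of sites inside the HNRNPU cluster. These were the only 2 of 26 sites (7.69%, exact 95% interval 0.946 to 25.1%) with another listed site within 50 nt, against 14.6% of the list. A shared tag cluster was found for 4 of 22 truncation sites (18.2%), all in HNRNPU, against 13.1% of the list. No mutation site of the 4 lay within 50 nt of a truncation site. The nearest were those of HNRNPA2B1 and HNRNPU, 167 and 320 nt 3′ of one. For the list's mutation sites the share within 50 nt of a truncation site was not computed, so this count has no list value beside it.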

How the data were processed

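The submitters' processing notes name cutadapt, BWA 0.7 and the build hg19, without saying what each tool did. The authors deposited 1 list of sites for 2 samples, with tag counts that combine both replicates, not normalized. Its site names follow the CTK toolkit, and the meanings given to truncated, expected, covering and mutated tags follow that naming. How sites were called, duplicates removed and tags with several matches placed is not given in the sources used here.

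Sites were assigned to windows, joined into loci and summarised with Python 3.11.15, numpy 2.4.6 and scipy 1.17.1, and the counting was checked on simulated data. Every gene is named. Sites given in full include the highest truncation site and the deepest mutation site of each gene. The genes, and the measures computed, were chosen with earlier results of these data known. GENCODE 29 (GRCh38) supplied names, span lengths and neighbours only. The planned assignment to exons and introns, the motif search and the counts for other hnRNP genes need hg19 and were not run. Alternatives varied windows, genes, thresholds and distances.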

Additional observations from a re-analysis of the deposited data

How the results depend on the processing

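No paired analysis was possible because both replicates of the only group are merged in the list, and for the same reason neither could be left out. Widening each window by 5 kb, or assigning sites by any overlap, left all 20 recomputed values identical. This had to be so, because the same strand held no listed site in the 10 kb on either side of the windows. Requiring a P under 1e-05, or 3 mutated tags, left 13 sites in 5 genes (HNRNPA2B1, HNRNPC, HNRNPH1, HNRNPU and HNRNPL). Of the remaining truncation sites 72.7% then had 9 or more tags, since this threshold removes low sites. The list's share under this threshold was not computed, and the 27.6% given above is for all its truncation sites. The share of sites with another within 50 nt, 7.69%, was 0% within 25 nt or without HNRNPU. Without both HNRNPA2B1 and HNRNPU, an alternative chosen after seeing the data, 10 sites in 9 loci remained and the share within 50 nt was 0%. Some medians moved by over 1.5 times while staying inside their wide order-statistic intervals, nominally of 95%. The median of 7 truncated tags (interval 6 to 11) was 11 with a P under 1e-05. The median of 5.5 covering tags was 9 among mutation sites with at least 5. For the 5.5 the interval, 4 to 11, is the full range of the 4 sites. It covers under 95%, and the median of any part of these sites must lie inside it. The median of 6 sites within 5 kb (interval 2 to 8) was 2 without HNRNPU, without HNRNPA2B1 or without both. Both kinds of site rest on few tags, with 4 to 11 covering tags at the mutation sites and a median of 7 truncated tags at the truncation sites.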

Other observations

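Tag cluster numbers in the site names never decreased along a strand (0 decreases among truncation sites), so the numbers between sites were read as clusters numbered between them. From its first to its last truncation site HNRNPU spanned 35 cluster numbers, of which 4 held a listed truncation site. HNRNPH1 spanned 36, of which 2 held one, although it had 2 sites against 7 in HNRNPU. HNRNPA2B1 spanned 23, of which 7 held one. Around HNRNPA1, 357 cluster numbers lay between the nearest truncation sites on either side, which are 2106 kb apart, and around HNRNPK 172 lay over 1537 kb. How many of these fell in the windows cannot be read from the list.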
